A study of Mus musculus with 12 samples.

Results

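Chemokines are small secreted proteins that direct the migration of leukocytes, and chemokine receptors are the G protein-coupled receptors on those cells that read them. The genes described here are the 57 rows of the count table whose symbols start with Ccl, Cxcl, Ccr, Cxcr, Xcl, Xcr, Cx3cl, Cx3cr or Ackr and end with a number and at most 1 letter, out of 18514 genes in all. They comprise 35 ligands, 18 signalling receptors and 4 atypical receptors, which bind chemokines without the usual signalling and so shape their gradients. Of these, 50 had enough counts to be tested.

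Ligands are named after the spacing of their first cysteines (CC, CXC, XC and CX3C) and are sorted by use into inflammatory chemokines, which are switched on by cytokines and microbial products, and homeostatic chemokines, which are made constantly and place lymphocytes and dendritic cells within tissues. In the colon, CXC ligands of Cxcr2 draw in neutrophils, Ccl2 with Ccr2 brings in monocytes, Cxcl9 and Cxcl10 attract T cells through Cxcr3, Cxcl13 with Cxcr5 and Ccl19 or Ccl21a with Ccr7 build lymphoid follicles, and epithelial ligands such as Ccl20, Ccl25 and Ccl28 recruit lymphocytes to the mucosa.

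RNA came from the colorectal tissue of 12 male C57BL/6 mice, bought at 4 weeks of age, with 1 library per mouse and 3 mice in each of 4 groups. Model mice received azoxymethane (AOM), a carcinogen, once at 10 mg/kg by intraperitoneal injection followed by 3 rounds of drinking water with 2% dextran sulfate sodium (DSS), an agent that injures the colon lining. Ctrl mice received neither agent, Ctrl_Swim mice swam for up to 90 min per day without AOM or DSS, and Model_Swim mice swam likewise before and during AOM/DSS. Mice that did not swim were put in shallow water. The sources used here do not say whether a tissue piece held a tumor, and they do not say whether animals of a group shared a cage.

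Total counts ranged from 17256953 to 19451055 per library, so that 3 counts, about the upper 95% counting limit for a measured 0, equal 0.153 to 0.172 CPM (counts scaled to library size, with TMM factors between libraries). This limit covers counting error only. The 10 colon epithelial markers examined summed to 11930 to 28667 CPM in each mouse. Some libraries also held RNA of other tissues. The summed CPM of 14 pancreatic acinar genes was 46541 in Model 1 and 22548 in Model 3 against 91.2 to 206 in the other 10 mice. All 12 acinar genes tested were called higher in Model than in Ctrl, against 6.21% of all genes. The summed CPM of 8 squamous epithelial genes was 104 to 1368 in Model 1 and 2, in all Model_Swim mice and in Ctrl_Swim 4, 44.9 in Ctrl_Swim 2 and 2.50 to 4.53 in the other 5 mice. The part of such RNA in the values below was not tested, beyond the fits named beside them. In whole tissue, fewer cells of a type and less RNA per cell cannot be told apart.

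The 5 promoter stretches below were chosen because they belong to inflammatory ligands that were high in AOM/DSS mice and hold a match to a motif. They are 120 bases from the RefSeq promoters of GRCm38.p6, written 5′ to 3′ in the direction of the gene. The first 4 end at the base before the transcription start and the last covers bases -250 to -131. Capitals mark the NF-kB-type site (GGG, any 2 bases, then TTTCC) on either strand, and in Cxcl10 the interferon-stimulated response element (ISRE) type site (GAAA, any 2 bases, then GAAA).
Cxcl1 (chr5:90891125-90891244, plus strand): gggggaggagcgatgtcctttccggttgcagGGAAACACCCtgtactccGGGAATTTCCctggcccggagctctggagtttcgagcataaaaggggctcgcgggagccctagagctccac
Cxcl2 (chr5:90903779-90903898, plus strand): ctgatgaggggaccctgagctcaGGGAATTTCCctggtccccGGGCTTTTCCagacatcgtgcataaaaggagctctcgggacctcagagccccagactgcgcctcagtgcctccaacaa
Cxcl3 (chr5:90785981-90786100, plus strand): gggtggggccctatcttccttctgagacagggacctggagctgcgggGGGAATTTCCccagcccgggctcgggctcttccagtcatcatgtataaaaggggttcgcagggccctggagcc
Ccl20 (chr1:83116646-83116765, plus strand): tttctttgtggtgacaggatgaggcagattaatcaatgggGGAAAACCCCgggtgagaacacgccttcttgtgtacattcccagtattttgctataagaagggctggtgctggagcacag
Cxcl10 (chr5:92349020-92349139, minus strand): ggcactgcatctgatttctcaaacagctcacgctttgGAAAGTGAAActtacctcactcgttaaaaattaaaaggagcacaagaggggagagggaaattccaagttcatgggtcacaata

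Cxcl1 and Cxcl2 each held a pair of NF-kB-type matches, with leftmost bases at -89 and -71 and at -97 and -78, and Cxcl3 and Ccl20 held a match each, at -73 and -80. The 300-base promoter table covered 44 of the 57 genes with 51 promoters. Genes without a promoter there, Cxcl5, Ccl2, Cxcl16, Ccr7 and Cxcr5 among them, were not searched. The NF-kB-type letters, searched on both strands as were the ISRE-type letters, were in 6 of these 51 promoters (11.8%) and in 535 of all 32851 promoters (1.63%), and the other holders were Ccl9 and Ccr3. The ISRE-type letters were in 3 of 51 (5.88%), those of Cxcl10, Cxcl14 and Ccl19, against 3.44% of all promoters. These are matches of letters and were not shown to be bound here.

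By FPKM, which scales counts to transcript length and so allows levels of different genes to be compared, the most abundant of these genes were ligands. Ccl6, a macrophage-attracting ligand, had the highest mean FPKM over the 12 mice at 171, followed by Ccl21a of lymphatic vessels at 107. Ccl8, the membrane-bound ligand Cx3cl1, epithelial Ccl28, eosinophil-attracting Ccl11, stromal Cxcl12 and Cxcl14, and follicular Cxcl13 came next, with mean FPKM of 34.1, 30.4, 24.9, 21.6, 16.5, 14.4 and 12.7. In the Ctrl mice Ccl6 stood at 202 ± 33.2 FPKM (SD, n = 3) and Ccl21a at 69.2 ± 8.43 FPKM, whereas the next 2, Ccl8 at 31.6 ± 6.54 and Cx3cl1 at 28.8 ± 0.772 FPKM, differed by less than the SD of Ccl8. The most abundant receptors were the atypical Ackr3 at 8.97, Cxcr4 at 5.2 and Cx3cr1 at 4.85 mean FPKM. Ccl1, Ccr3, Ccl27b, Cxcr1 and Cxcl15 were barely detected, with a mean FPKM below 0.1.

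The comparison of Model with Ctrl asks which genes differ in colitis-associated cancer without swimming. Of the 50 genes tested, 18 were called, 16 higher and 2 lower in Model, with the cutoffs of the study (fold change beyond 2 or 0.5, adjusted p below 0.05). Among all 15484 genes tested, 7.43% were called, 6.21% higher and 1.22% lower. By the adjusted p-value alone 26 passed (32.7% of all genes did), and the 3 Model and 3 Ctrl mice did not overlap in 27 (44.2% of all genes), with Model above in 22 (21.0%) and below in 5 (23.2%). The higher genes included the ligands Cxcl5, Cxcl2, Cxcl1, Ccl2, Cxcl10, Cxcl9, Ccl20 and Cxcl16 and the receptors Cxcr2, Ccr7, Ccr6, Cxcr4, Cxcr5, Cxcr6 and Ccr2, and the lower ones were the ligands Ccl25 and Cxcl14. The median log2 fold change was 0.76 over the 50 genes tested and 0.0055 over all genes tested. The filter on low counts was passed by 41 of these genes within the 6 untreated mice alone, with a median of 0.65. The other 9 tested genes (Ccl17, Ccl24, Ccl3, Ccr3, Cxcl1, Cxcl2, Cxcl3, Cxcl5 and Cxcr2) did not pass it there, and the 4 called among them were all higher.

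**Figure D1:**
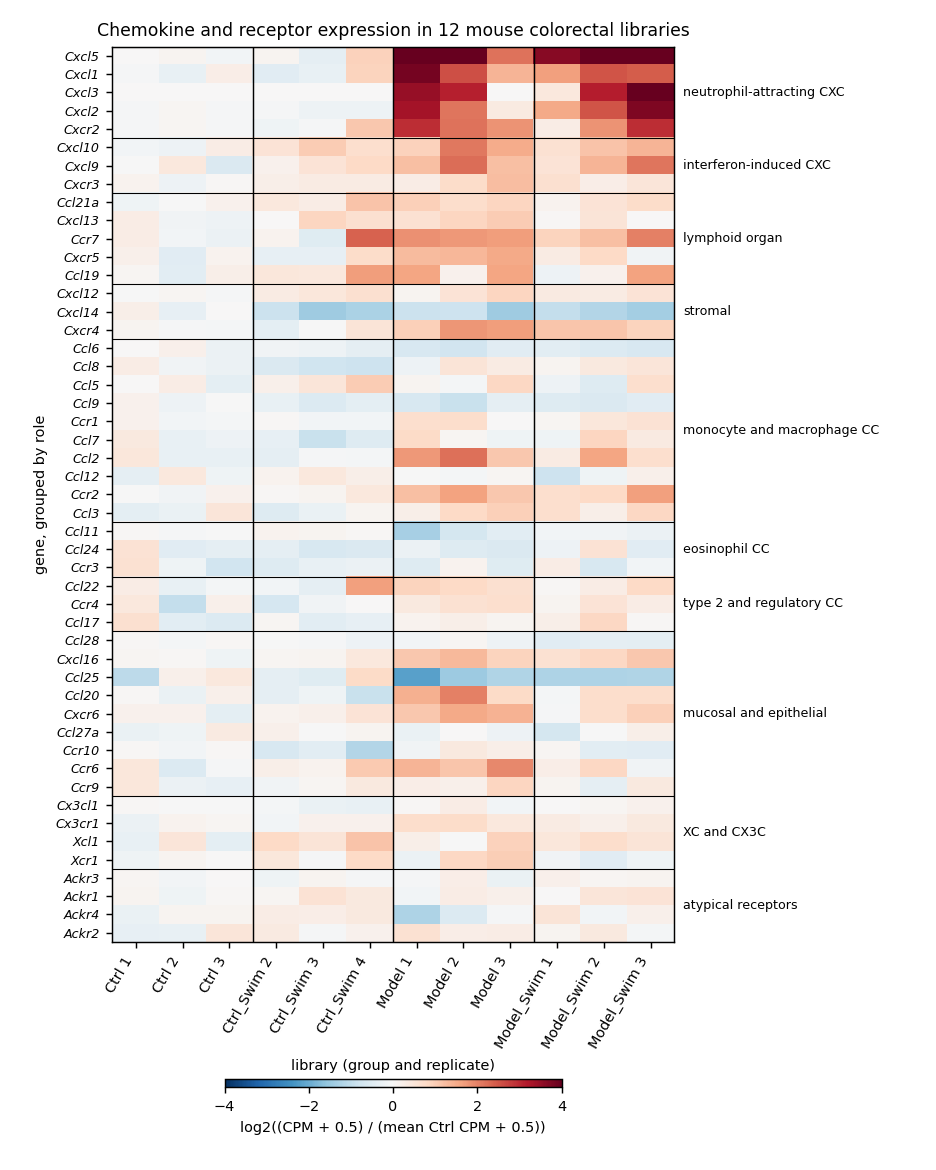
Expression of the tested genes (rows, grouped by role) in the 12 libraries (columns), as log2 of CPM relative to the mean of the 3 Ctrl mice, with 0.5 CPM added to each and colors capped at -4 and 4. The neutrophil-attracting genes are red in the AOM/DSS mice except for Cxcl3 and Cxcl2 in Model 3 and Cxcr2 and Cxcl3 in Model_Swim 1, which are pale, and Ccr7 is also red in Ctrl_Swim 4.

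Among the genes called, the neutrophil-attracting ligands Cxcl5, Cxcl2 and Cxcl1 and their receptor Cxcr2 showed the highest fold changes. These genes entered the test only through their counts in AOM/DSS mice and had at most 6 counts in any Ctrl mouse. Their rank is thus not independent of the count filter, and their fold changes are imprecise. Values per mouse are given in the order of replicate numbers. Cxcl5, made largely by epithelium, was at 0.276, 0.327 and 0.220 CPM in Ctrl, 0.329, 0.106 and 0.971 CPM in Ctrl_Swim (mice 2, 3 and 4), 55.5, 35.1 and 2.98 CPM in Model, and 9.08, 48.4 and 35 CPM in Model_Swim. All AOM/DSS mice lay above all untreated mice, and Model 3 was the lowest of the 6. The log2 fold change of Model against Ctrl was 6.79 ± 1.2 (SE; edgeR adjusted p = 0.00246, n = 3 per group).

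Cxcl1 was at 0.166, 0.0545 and 0.330 CPM in Ctrl and at 9.22, 3.60 and 1.26 CPM in Model, a log2 fold change of 4.63 ± 1.09 (edgeR adjusted p = 0.00917). Cxcl2 was at 0.0552, 0.109 and 0.0550 CPM in Ctrl and at 5.31, 2.02 and 0.230 CPM in Model, a log2 fold change of 4.98 ± 1.19 (edgeR adjusted p = 0.00967). In the Ctrl mice Cxcl2 had 1, 2 and 1 counts, so that its fold change is imprecise. Cxcr2, the receptor of these ligands on neutrophils, was at 0.110, 0.164 and 0.110 CPM in Ctrl and at 4.34, 2.34 and 1.66 CPM in Model, a log2 fold change of 4.37 ± 1.10 (edgeR adjusted p = 0.0122). The Model and Ctrl mice did not overlap for any of these 3 genes.

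Cxcl3 had no count in any of the 6 untreated mice and 95, 70 and 0 counts in Model. Summed over the group, Model was 55.2-fold above a floor of 3 counts over the Ctrl group. With Model 3 at 0 the groups overlapped, and the gene did not pass the test (edgeR adjusted p = 0.0527), whereas it passed by DESeq2 (adjusted p = 0.0228) without Model 3 (edgeR adjusted p = 0.0135) and without Model_Swim 1 (edgeR adjusted p = 0.0407). The other genes of this group, Cxcl15 and Cxcr1, had 3 and 8 counts in all 12 libraries together and were not tested.

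The summed CPM of 10 neutrophil markers was 18.3 to 33.6 in Ctrl, 25.2 to 30.2 in Ctrl_Swim, 152, 99.2 and 33.4 in Model, and 47.1, 86.7 and 182 in Model_Swim. Of the 9 markers tested, 5 were called higher in Model (against 6.21% of all genes), among them S100a8 and S100a9, which encode calprotectin, with log2 fold changes of 5.93 ± 1.54 and 5.65 ± 1.37. S100a8, at most 0.273 CPM in Ctrl, would not have passed the count filter in the untreated mice alone. Nor would the tested markers Mmp8 and Trem1, at most 0.307 and 0.426 CPM in untreated mice. These markers entered the test only through AOM/DSS mice, so the share called is not independent of that filter. Model 3 and Model_Swim 1 were the lowest AOM/DSS mice for this sum as well as for Cxcl5, Cxcl2 and Cxcl3. They were also the lowest for the squamous sum, at 3.85 and 104 CPM against 483 to 1368 CPM in the other AOM/DSS mice. Which of these sums the ligands follow was not tested. With the neutrophil list as a covariate, which itself moves with the groups, 2 of the chemokine genes were called (against 1.47% of all genes), Cxcr4 and Cxcr3, and with the squamous list 10 were (against 3.33%), Cxcl5 and not Cxcl1, Cxcl2 or Cxcr2 among them. With the acinar list 11 were called (against 5.02%), Cxcl1 and Cxcl5 among them. Cxcl2 and Cxcr2 then missed the threshold with log2 fold changes of 4.57 and 4.33 (edgeR adjusted p = 0.0504 and 0.0514). Without Model 1 and 3, the libraries with pancreatic RNA, only Model 2 was left in its group, so no calls are given. Model 2 was at 35.1, 3.60, 2.02 and 2.34 CPM for Cxcl5, Cxcl1, Cxcl2 and Cxcr2, above every Ctrl mouse. It also had the highest squamous sum of all mice, 1368 CPM.

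**Figure D2:**
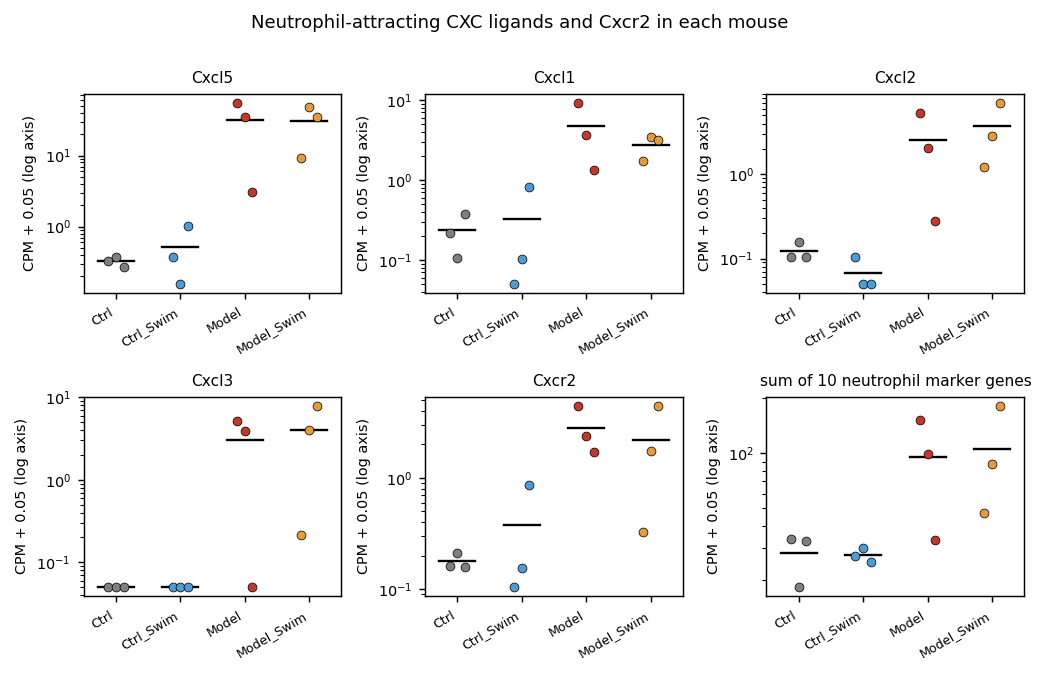
Each mouse's CPM plus 0.05 (log axis) of 5 neutrophil-attracting genes and the sum of 10 neutrophil markers, by group, with lines at group means. Cxcl3 lies at 0 CPM in all 6 untreated mice and in Model 3, and Model 3 has the lowest marker sum of the AOM/DSS mice (33.4 CPM).

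Of the genes of the interferon axis, the T cell-attracting ligands Cxcl10 and Cxcl9 rose and their receptor Cxcr3 lay at the edge of the cutoffs. Cxcl10 was at 1.66, 1.53 and 2.36 CPM in Ctrl and at 3.97, 9.59 and 6.03 CPM in Model, with a log2 fold change of 1.82 ± 0.35 (edgeR adjusted p = 0.00369). Cxcl9 was at 3.20, 4.47 and 1.98 CPM in Ctrl and at 8.04, 16.8 and 8.09 CPM in Model, with a log2 fold change of 1.77 ± 0.45 (edgeR adjusted p = 0.0136). The groups did not overlap, and Model 2 was highest for both ligands. The call of Cxcl9 was lost without Ctrl 3 (edgeR adjusted p = 0.0557) and without Model 2 (edgeR adjusted p = 0.0535). Cxcr3 was at 1.66, 1.20 and 1.54 CPM in Ctrl and at 1.93, 2.78 and 4.08 CPM in Model, with a log2 fold change of 0.99 ± 0.30 (edgeR adjusted p = 0.0255), just inside the fold cutoff. It was called by DESeq2 and without Ctrl 1, Model 1 or 2, or any Ctrl_Swim or Model_Swim mouse, with log2 fold changes of 1.01 to 1.23 in the latter fits. The interferon gene Ifng itself stayed at or below 0.599 CPM in every mouse.

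Among the monocyte and macrophage genes, Ccl2 and its receptor were called higher and none was called lower. Ccl2, the main monocyte attractant, was at 1.60, 0.763 and 0.770 CPM in Ctrl and at 4.61, 6.65 and 2.76 CPM in Model, with a log2 fold change of 2.15 ± 0.48 (edgeR adjusted p = 0.00692). Its receptor Ccr2 was at 4.53, 4.14 and 5.22 CPM in Ctrl and at 11.4, 15.0 and 10.4 CPM in Model, with a log2 fold change of 1.41 ± 0.26 (edgeR adjusted p = 0.00319). No Model mouse overlapped a Ctrl mouse in either gene.

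Ccl6 and Ccl9, ligands of macrophages, passed the adjusted p-value with lower values in Model but not the fold cutoff. Ccl6 was at 309, 356 and 260 CPM in Ctrl and at 198, 183 and 223 CPM in Model, and its log2 fold change was -0.61 ± 0.12 (edgeR adjusted p = 0.00354). Ccl9 had a log2 fold change of -0.62 ± 0.14 (edgeR adjusted p = 0.00721). Ccl8, another ligand of macrophages, was at 21.4, 15.7 and 14.5 CPM in Ctrl and at 15.0, 24.9 and 21.8 CPM in Model, and these ranges overlapped. Ccr1, the most abundant receptor of the group, was at 9.88, 8.12 and 8.36 CPM in Ctrl and at 14.2, 14.5 and 8.84 CPM in Model (log2 fold change 0.51 ± 0.20, edgeR adjusted p = 0.0673). The log2 fold changes of Ccl3, Ccl5, Ccl7 and Ccl12 were between -0.01 and 1.39 and did not pass, and Ccl4, with 78 counts in all, was not tested. Ccl3 was called without Ctrl 3 (log2 fold change 2.46, edgeR adjusted p = 0.0489).

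The summed CPM of 11 macrophage markers was 454 to 469 in Ctrl, 410 to 514 in Ctrl_Swim, 847 to 921 in Model and 728 to 870 in Model_Swim, with no overlap between treated and untreated mice. Of these markers, Cd68, C1qb and Lyz2 were called higher in Model and Cd163 lower. Their part in the values of Ccl2 and Ccr2 was not tested.

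**Figure D3:**
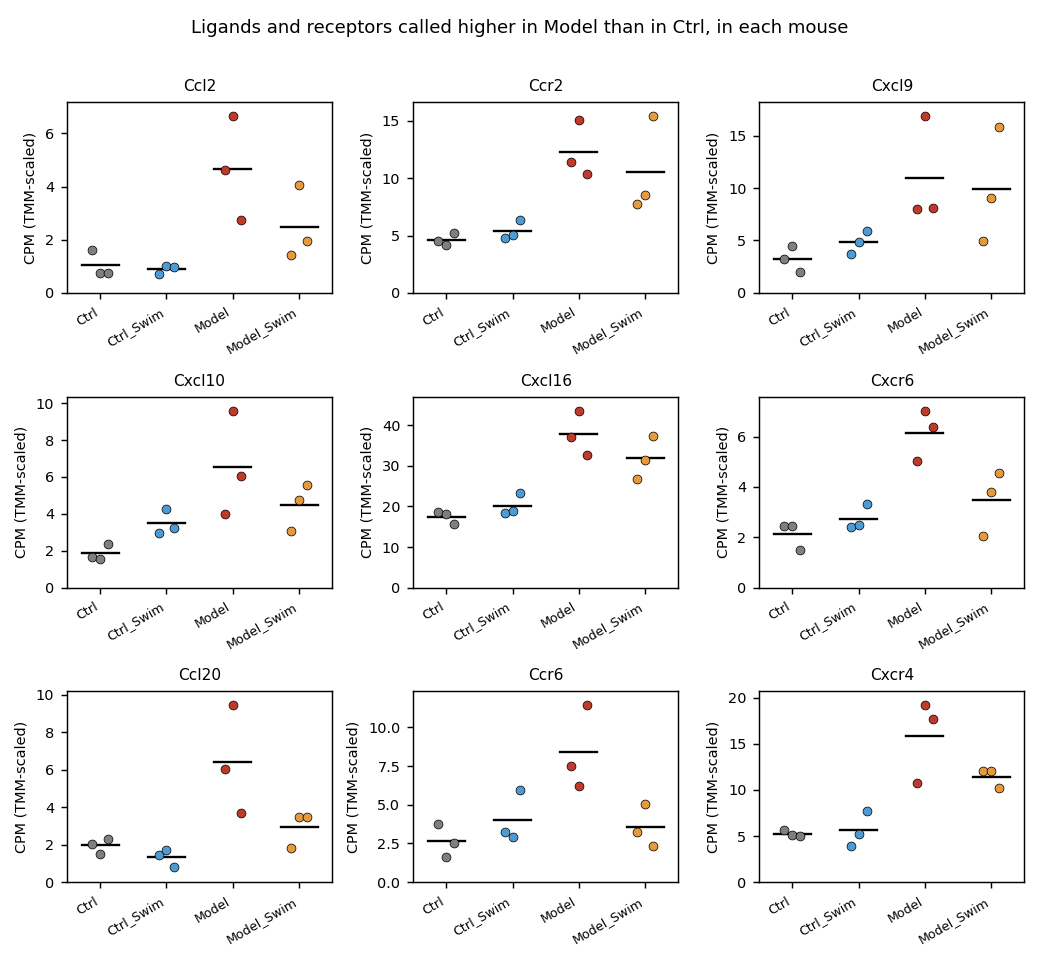
Each mouse's CPM of 9 ligands and receptors called higher in Model, by group, with lines at group means. The 3 Model mice lie above the 3 Ctrl mice in every panel, and for Cxcr6 and Ccr6 the Model_Swim mice (2.04 to 4.56 and 2.33 to 5.06 CPM) lie below the Model mice.

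In the lymphoid organ group, the receptors Ccr7 and Cxcr5 were called higher and their ligands Ccl21a and Cxcl13 passed the adjusted p-value but not the fold cutoff. Cxcr5, the receptor of follicular B and T cells, was at 3.26, 1.91 and 3.13 CPM in Ctrl and at 7.4, 7.74 and 8.90 CPM in Model, with a log2 fold change of 1.53 ± 0.37 (edgeR adjusted p = 0.011). Ccr7, the receptor of naive T cells and mature dendritic cells, was at 1.88, 1.31 and 1.15 CPM in Ctrl and at 6.38, 5.99 and 5.68 CPM in Model, with a log2 fold change of 2.05 ± 0.71 (edgeR adjusted p = 0.0466). Its call was lost without any of the Ctrl, Model or Model_Swim mice, with adjusted p-values of 0.0526 to 0.13 in these 9 fits. The spread that this test used included Ctrl_Swim 4, at 9.56 CPM the highest of the 12 mice, against 1.64 and 0.904 CPM in the other Ctrl_Swim mice.

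Cxcl13, the ligand of Cxcr5, was at 13.2, 9.59 and 9.24 CPM in Ctrl and at 16.4, 20.0 and 22 CPM in Model (log2 fold change 0.86 ± 0.23, edgeR adjusted p = 0.0171). Ccl21a was at 56.7, 62.9 and 71.7 CPM in Ctrl and at 123, 104 and 116 CPM in Model (log2 fold change 0.85 ± 0.21, edgeR adjusted p = 0.0119). Neither gene had overlapping mice, and Cxcl13 was called without Ctrl 1 (log2 fold change 1.07, edgeR adjusted p = 0.0176). Ccl19 was at 0.442, 0.164 and 0.550 CPM in Ctrl and at 2.14, 0.490 and 2.12 CPM in Model, and did not pass (edgeR adjusted p = 0.0951). Of the 75-base stretches of their transcripts, 61.3% for Ccl21a and 45.3% for Ccl19 also occur in near-identical genes such as Ccl21b and Ccl19-ps1, so these counts are uncertain.

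The summed CPM of 12 B cell and follicle markers was 57.5 to 113 in Ctrl, 76.6, 103 and 231 in Ctrl_Swim, 209 to 246 in Model and 74.5 to 115 in Model_Swim. Of the 12, 10 were called higher in Model than in Ctrl, against 6.21% of all genes. The 11 T cell markers in the table summed to 38.4 to 44.9 CPM in Ctrl and 80.5 to 124 CPM in Model, with 7 called higher (against the same 6.21%). With the B cell and follicle list as a covariate, which moves with the groups, none of the chemokine genes was called between Model and Ctrl by edgeR, against 0.181% of all genes, and 17 of the 50 had an unadjusted p-value under 0.05, against 19.7%. In that fit the log2 fold changes of Cxcr5, Ccr6 and Ccr7 were 0.29, 0.48 and 0.51. Those of the other genes called higher in Model lay between 0.96 (Cxcr4) and 8.91 (Cxcl2). Cxcl1 and Ccl2, at 2.39 and 1.58, were below their values without the list, and Cxcl2 was above its own. Cxcl5, Cxcl10, Ccr2 and Cxcl16 were at 6.34, 1.95, 1.42 and 1.04.

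Among the mucosal and epithelial genes, 4 of the 9 tested were called higher and 1 lower, against 6.21% and 1.22% of all genes. Cxcl16, a membrane-bound ligand, was at 18.6, 18.1 and 15.6 CPM in Ctrl and at 37.1, 43.6 and 32.7 CPM in Model, with a log2 fold change of 1.12 ± 0.15 (edgeR adjusted p = 0.000756), the lowest adjusted p-value of the 18. Its receptor Cxcr6, found on resident T cells, was at 2.43, 2.45 and 1.48 CPM in Ctrl and at 5.04, 7.03 and 6.37 CPM in Model, with a log2 fold change of 1.53 ± 0.31 (edgeR adjusted p = 0.005). The ligand and its receptor were thus higher in all 3 Model mice.

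Ccl20 and its receptor Ccr6, which bring lymphocytes and dendritic cells to the follicle-associated epithelium, were also each called higher, with opposite orders of the 3 Model mice. Ccl20 was at 2.04, 1.53 and 2.31 CPM in Ctrl and at 6.06, 9.43 and 3.67 CPM in Model, with a log2 fold change of 1.70 ± 0.40 (edgeR adjusted p = 0.00904). Ccr6 was at 3.75, 1.64 and 2.53 CPM in Ctrl and at 7.51, 6.21 and 11.4 CPM in Model, with a log2 fold change of 1.66 ± 0.41 (edgeR adjusted p = 0.0109). Without Model 1 and 3, which left Model 2 alone in its group, the log2 fold change of Ccr6 was 1.21. Model 2 had the highest Ccl20 and the lowest Ccr6 of the Model mice.

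Ccl25, the ligand that draws gut-homing T cells through Ccr9, was at 4.91, 12.4 and 14.5 CPM in Ctrl and at 1.98, 3.54 and 4.30 CPM in Model, with a log2 fold change of -1.70 ± 0.45 (edgeR adjusted p = 0.0158). All Model mice lay below all Ctrl mice, and Ctrl 1 lay close to Model. The 10 colon epithelial markers summed to 25096 to 28667 CPM in Ctrl and to 11930, 15995 and 25246 CPM in Model, and none was called. The Model mice had the same order for this sum and Ccl25, whereas Ctrl 1 had the highest sum and the lowest Ccl25 of its group. The part of epithelial content in Ccl25 was not tested. The call was lost without Ctrl 2 (edgeR adjusted p = 0.0552) and without Ctrl 3 (edgeR adjusted p = 0.0662). Ccr9 itself was at 0.880 to 1.88 CPM in Ctrl and 1.53 to 2.64 CPM in Model and did not pass the test. Ccl28, the most abundant ligand of the group, stayed at 136 to 148 CPM in Ctrl and 125 to 152 CPM in Model, and its receptor Ccr10 at 2.34 to 2.69 and 2.25 to 3.54 CPM. Ccl27a, which shares 33.3% of its 75-base stretches with near-identical genes, had a log2 fold change of -0.17 ± 0.32, and Ccl27b and Cxcl17, with 5 and 24 counts in all, were not tested. Cxcl17 had 12 counts in Model and 1 in Ctrl, a ratio of 12 with a 95% counting interval of 1.78 to 515.

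Of the stromal genes, Cxcl14 was lower and Cxcr4 higher. Cxcl14, a homeostatic ligand of epithelium and stroma, was at 75.8, 51.1 and 64.3 CPM in Ctrl and at 35.1, 35.5 and 23.5 CPM in Model. The mice did not overlap, and the log2 fold change of -1.02 ± 0.20 (edgeR adjusted p = 0.00415) lay at the fold cutoff. In 9 of the 12 fits that left out 1 mouse, the log2 fold change of Cxcl14 lay just inside that cutoff, at -1.0 to -0.84 with adjusted p-values of 0.00434 to 0.0213. These fits were those without Ctrl 1 or 3, Model 3, or any Ctrl_Swim or Model_Swim mouse.

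Cxcr4, carried by most leukocytes, was at 5.69, 5.12 and 5.0 CPM in Ctrl and at 10.7, 19.2 and 17.7 CPM in Model, with a log2 fold change of 1.59 ± 0.26 (edgeR adjusted p = 0.0017). Its ligand Cxcl12 was at 89.0, 95.2 and 87.6 CPM in Ctrl and at 97.7, 132 and 164 CPM in Model (log2 fold change 0.53 ± 0.16, edgeR adjusted p = 0.0248), within the fold cutoff. Both genes were higher in all 3 Model mice than in any Ctrl mouse.

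None of the genes of eosinophils, of type 2 responses, of the Xcl1 and Cx3cl1 axes or of the atypical receptors was called between Model and Ctrl by edgeR or DESeq2 in the fit of all mice. Ccl11 (eotaxin), which attracts eosinophils, came nearest among the lower ones, at 27.2, 25.4 and 26.1 CPM in Ctrl and 10.2, 16.1 and 19.5 CPM in Model (log2 fold change -0.78 ± 0.17, edgeR adjusted p = 0.00727), with no overlap. Its receptor Ccr3 stayed at or below 0.938 CPM in every mouse, and Ccl24, another attractant of eosinophils, did not exceed 1.41 CPM. Cx3cr1, the receptor of resident macrophages, was at 12.5, 16.4 and 15.6 CPM in Ctrl and at 24.6, 25.2 and 20.1 CPM in Model (log2 fold change 0.65 ± 0.13, edgeR adjusted p = 0.00492), while its ligand Cx3cl1 lay at 94.3 to 100 CPM in Ctrl and 88.5 to 118 CPM in Model.

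Ccl22 and its receptor Ccr4, which guide regulatory and type 2 T cells, had log2 fold changes of 0.87 ± 0.49 and 0.79 ± 0.51 and did not pass, nor did Ccl17, Xcl1 or Xcr1, the receptor of cross-presenting dendritic cells, which was called without Model 1 (log2 fold change 1.12, edgeR adjusted p = 0.0245). The receptor Ccr8 and its ligand Ccl1, with 62 and 11 counts in all, were not tested. Without Model 3, Ccr8 passed the filter and was called (log2 fold change 2.77, edgeR adjusted p = 0.0235). Of the atypical receptors, the scavenger Ackr3 had a log2 fold change of 0.01 ± 0.13, Ackr1 0.16 ± 0.22 and Ackr2 0.46 ± 0.28. Ackr4, which removes Ccl19, Ccl21a and Ccl25, was at 9.60, 12.6 and 12.6 CPM in Ctrl and at 4.61, 7.74 and 11.1 CPM in Model (edgeR adjusted p = 0.122). Model 1, which had the most pancreatic RNA and the lowest sum of colon epithelial markers, was the lowest of the 12 mice for Ackr4, Ccl11 and Ccl25.

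Many of these genes lie in clusters. In the cluster at chromosome 5, 90759298 to 90905938 (GRCm38.p6), Cxcl5, Cxcl1 and Cxcl2 were called higher, Cxcl3 was not called and Cxcl15 was not tested. Cxcl9 and Cxcl10, which lie side by side at chromosome 5, 92321331 to 92348889, were both called higher. Of the ligands on chromosome 11, Ccl2 was called in the cluster of 6 at 82035577 to 82179812 and none in the cluster of 5 at 83525778 to 83664683, which holds Ccl6, Ccl9, Ccl5, Ccl3 and Ccl4. The exons of Ccl25, Cxcl16, Cxcl10, Cxcr5 and Ackr4 overlap a gene on the opposite strand (Elavl1, Zmynd15, Art3, Bcl9l and Acad11), and the strand setting of the counting is not given in the sources used here.

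Of the 13 cytokines in the list of upstream inducers, 8 were tested and 6 were called higher in Model, against 6.21% of all genes. Il1b, which switches on the neutrophil-attracting ligands, was at 1.38, 0.818 and 0.935 CPM in Ctrl and at 22.4, 24.7 and 6.37 CPM in Model (log2 fold change 4.09 ± 0.55, edgeR adjusted p = 0.000737). Tnf had a log2 fold change of 3.32 ± 0.48, Il1a of 5.36 ± 1.00 and Ltb, which organizes lymphoid tissue, of 1.64 ± 0.30, and the other called genes were Il17a and Tnfsf11. Il1a and Il17a, at most 0.613 and 0.166 CPM in untreated mice, would not have passed the count filter there, so their fold changes are imprecise. Model 3 was the lowest Model mouse for Il1b, Tnf and Il1a, as it was for Cxcl5, Cxcl1 and Cxcl2.

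Of the 19 related attractants and receptors in the table, 4 were called higher (against 6.21% of all genes) and none lower. They were Ppbp, another CXC ligand of Cxcr2, with a log2 fold change of 6.79 ± 1.74, the formyl peptide receptors Fpr1 and Fpr2 of neutrophils with 4.12 ± 0.90 and 3.36 ± 1.06, and Cd74 with 1.04 ± 0.30. Ppbp was at 27.2, 102 and 0.517 CPM in Model against 0.273 to 0.605 CPM in Ctrl, and thus overlapped in Model 3. Fpr1 and Fpr2, at most 0.372 and 0.638 CPM in untreated mice, would not have passed the count filter there. Of the 37 genes of signalling below the receptors, 7 were called higher and none lower, including Jak3, Ncf1, Pik3cd and Was, with log2 fold changes of 1.02 to 1.26. The median log2 fold change was 0.44 over this list, 0.78 over the related genes and 2.43 over the inducers tested.

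The comparison of Model_Swim with Ctrl_Swim repeats the AOM/DSS contrast in swimming mice and shares no mouse with the first. Of the 50 genes, 4 were called, all higher in Model_Swim, against 1.00% of all genes tested in either direction and 0.924% higher. Cxcl5 had a log2 fold change of 6.0 ± 1.11 (edgeR adjusted p = 0.0172). Cxcl2 was at 0.0548, 0 and 0 CPM in Ctrl_Swim and at 1.16, 2.77 and 7.05 CPM in Model_Swim (edgeR adjusted p = 0.0201), with 205 counts against 1, a ratio of 209 with a 95% counting interval of 37.2 to 8312. For both ligands all Model_Swim mice lay above all Ctrl_Swim mice.

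Cxcr4 was at 3.89, 5.27 and 7.67 CPM in Ctrl_Swim and at 12.1, 12.1 and 10.2 CPM in Model_Swim, with a log2 fold change of 1.03 ± 0.26 (edgeR adjusted p = 0.0443). Ccl8 was at 11.2, 9.74 and 9.40 CPM in Ctrl_Swim and at 18.7, 22.8 and 24.4 CPM in Model_Swim, with a log2 fold change of 1.12 ± 0.20 (edgeR adjusted p = 0.0156). The groups did not overlap in either gene. Ccl8 was not called between Model and Ctrl, where its log2 fold change was 0.26 ± 0.20, and the interaction, which tests the difference of these effects, gave 0.86 ± 0.28 (edgeR adjusted p = 0.155).

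Each of these 4 calls was lost without some of the mice. The call of Cxcl5 was lost without Ctrl_Swim 2 or 3 or Model_Swim 2 or 3 (edgeR adjusted p = 0.0513 to 0.0692) and that of Cxcl2 without any Ctrl_Swim mouse or Model_Swim 3 (0.0593 to 0.0755). The call of Ccl8 was lost without Ctrl_Swim 3 or Model_Swim 2 or 3 (0.0547 to 0.0623), and that of Cxcr4 without any Ctrl or Model_Swim mouse or Ctrl_Swim 2 or 3 (0.0679 to 0.133). By DESeq2 9 genes were called of 46 with an adjusted p-value (against 1.85% of all genes with one), the 4 and in addition Ccl2, Cxcl1, Cxcl3 and Cxcr2 higher and Ccl25 lower.

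By edgeR the other neutrophil-attracting genes passed at an unadjusted p-value under 0.05 only. Cxcl1 was at 0, 0.0532 and 0.767 CPM in Ctrl_Swim and at 1.65, 3.37 and 3.13 CPM in Model_Swim (log2 fold change 3.26 ± 1.02, edgeR adjusted p = 0.0904), and it was called without Ctrl_Swim 4 (edgeR adjusted p = 0.034) and without Model 3 (edgeR adjusted p = 0.0427). Cxcl3 had 223 counts in Model_Swim and none in Ctrl_Swim, and was 75.9-fold above a floor of 3 counts over the group (edgeR adjusted p = 0.112, and 0.0368 without Model 3). Cxcr2 was at 0.0548, 0.106 and 0.818 CPM in Ctrl_Swim and at 0.275, 1.69 and 4.40 CPM in Model_Swim (log2 fold change 2.66 ± 0.97, edgeR adjusted p = 0.137), and the groups overlapped. Of the 9 neutrophil markers tested, Csf3r was called higher in Model_Swim, and with that list as a covariate none of the 50 chemokine genes was called by edgeR (against 0.342% of all genes), and 6 had an unadjusted p-value under 0.05 (against 18.4%). Ccr7 was called without Ctrl_Swim 4 (log2 fold change 1.91, edgeR adjusted p = 0.0424).

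Of the 16 genes called higher in Model than in Ctrl, Cxcl5, Cxcl1, Cxcl2 and Cxcr2 entered the test only through their counts in AOM/DSS mice, those of Model_Swim included. Of the other 12, 11 were also higher in Model_Swim than in Ctrl_Swim, 6 of them at an unadjusted p-value under 0.05, and 1, Cxcr4, passed the cutoffs. Among all 750 genes called higher in Model that passed the count filter within untreated mice, 82.1% were higher in Model_Swim, 38.8% at an unadjusted p-value under 0.05, and 12.9% were called. The exception was Ccr6, with a log2 fold change of -0.19 ± 0.40 in the swimming mice. Cxcl16 passed the adjusted p-value with 0.66 ± 0.15 (edgeR adjusted p = 0.0321) but not the fold cutoff (5.18% of all genes passed the adjusted p-value), and Ccr2 had 0.96 ± 0.26 (edgeR adjusted p = 0.0569) and Ccl2 1.46 ± 0.48 (edgeR adjusted p = 0.102). Ccl25 was at 8.11, 7.50 and 18.3 CPM in Ctrl_Swim and at 4.18, 4.19 and 4.35 CPM in Model_Swim, without overlap (log2 fold change -1.42 ± 0.44, edgeR adjusted p = 0.0897). The cytokines Tnf, Il1a and Il1b were called higher, and none of the related or signalling genes.

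**Figure D4:**
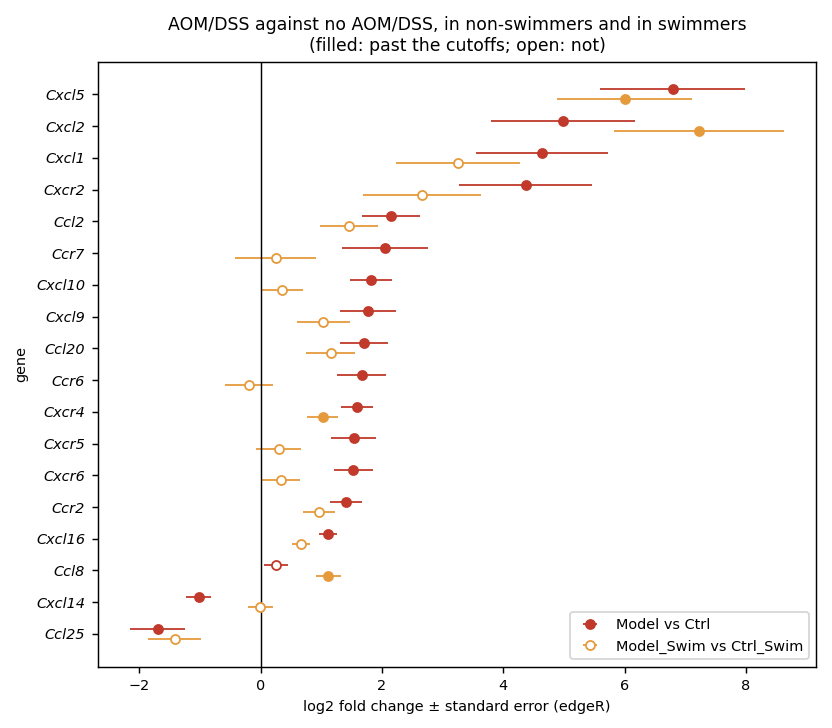
Log2 fold changes with standard errors (edgeR, 3 mice against 3) of genes called in Model against Ctrl (red) or in Model_Swim against Ctrl_Swim (orange), filled where called. Cxcl5, Cxcl2 and Cxcr4 are filled in both, Ccl8 in the swimming mice alone, and the values of Ccr6 are 1.66 and -0.19, a difference that did not pass the edgeR test of interaction.

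The comparison of Model_Swim with Model asks what swimming changed in mice given AOM/DSS. None of the 50 genes was called by edgeR or by DESeq2, against 0.0710% of all genes. By edgeR 10 genes had an unadjusted p-value under 0.05 (against 13.6% of all genes), 8 lower (6.91%) and 2 higher (6.66%) in Model_Swim, and the groups did not overlap in 8 of the 50 genes (against 16.9% of all genes). The median log2 fold change was -0.26 over the 50 genes and -0.01 over all genes tested.

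The 10 genes, named here after their values were seen, included both members of the Ccl20 and Ccr6 pair. Ccl20 was at 6.06, 9.43 and 3.67 CPM in Model and at 1.82, 3.48 and 3.5 CPM in Model_Swim (log2 fold change -1.12 ± 0.39, edgeR adjusted p = 0.265), and Ccr6 was at 7.51, 6.21 and 11.4 CPM in Model and at 3.25, 5.06 and 2.33 CPM in Model_Swim (-1.24 ± 0.40, edgeR adjusted p = 0.243). Cxcr5 was at 7.4 to 8.90 CPM in Model and at 3.58, 5.22 and 2.49 CPM in Model_Swim (-1.09 ± 0.37, edgeR adjusted p = 0.261), its ligand Cxcl13 at 16.4 to 22 and 10.9 to 15.4 CPM (-0.65 ± 0.23), and Cxcr6 at 5.04 to 7.03 and 2.04 to 4.56 CPM (-0.82 ± 0.31). All Model_Swim mice lay below all Model mice in these 5 genes. Ccl28, Cx3cr1 and Xcr1 were the other lower genes, and Ccl11 (0.62 ± 0.17, edgeR adjusted p = 0.196) and Ackr4 (0.81 ± 0.27, edgeR adjusted p = 0.259) the higher ones. Ackr4 was called without Model 3 (log2 fold change 1.16, edgeR adjusted p = 0.0205), when Model 1 and 2, at 4.61 and 7.74 CPM, remained.

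The B cell and follicle markers moved in the same direction, with a median log2 fold change of -1.22 and no overlap of their sums (209 to 246 CPM in Model and 74.5 to 115 CPM in Model_Swim), and none of the 12 was called. With that list as a covariate no gene of the table was called by edgeR, and 3 of the 50 chemokine genes had an unadjusted p-value under 0.05, against 4.02% of all genes. The neutrophil-attracting genes were not resolved with this number of mice. Cxcl5 had a log2 fold change of -0.02 ± 0.78, Cxcl1 of -0.79 ± 0.85, Cxcl2 of 0.54 ± 0.84 and Cxcr2 of -0.39 ± 0.85 between Model_Swim and Model, with errors that leave room for large differences in either direction.

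The comparison of Ctrl_Swim with Ctrl asks what swimming changed in mice without AOM/DSS. Of the 50 genes 1 was called, Cxcl14, lower in Ctrl_Swim, against 0.168% of all genes called in either direction and 0.142% lower. It was at 75.8, 51.1 and 64.3 CPM in Ctrl and at 35.2, 23.6 and 26.1 CPM in Ctrl_Swim, with a log2 fold change of -1.17 ± 0.20 (edgeR adjusted p = 0.0331). All Ctrl_Swim mice lay below all Ctrl mice, within the range of the Model mice (23.5 to 35.5 CPM) and near that of the Model_Swim mice (24.5 to 32.4 CPM), so that the Ctrl mice stood apart from the other 9. The comparisons of Model and of Ctrl_Swim with Ctrl share these 3 Ctrl mice. The call was lost in 8 of 12 fits without 1 mouse, those without any Ctrl or Model_Swim mouse or without Ctrl_Swim 3 or 4, with adjusted p-values of 0.0509 to 0.165 and log2 fold changes of -1.29 to -1.01.

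At an unadjusted p-value under 0.05 there were 10 genes (against 17.6% of all genes), 5 higher (8.14%) and 5 lower (9.49%), and 15 of the 50 genes did not overlap between the groups (against 27.4%). Ccl8, at 21.4, 15.7 and 14.5 CPM in Ctrl and 11.2, 9.74 and 9.40 CPM in Ctrl_Swim, had a log2 fold change of -0.76 ± 0.20 (edgeR adjusted p = 0.11). Ctrl_Swim 4 stood apart from the other Ctrl_Swim mice in Ccr7 at 9.56, Ccl19 at 2.30, Ccl21a at 140 and Ccl22 at 10.4 CPM, each the highest of the 12 mice. For Ccl19, Model_Swim 3 was close at 2.17 CPM. Cxcl13 was higher in Ctrl_Swim 3 (19.7 CPM) than in Ctrl_Swim 4 (16.9 CPM). The B cell and T cell marker sums of Ctrl_Swim 4, 231 and 104 CPM, were the highest of its group. Its sum of 7 dendritic cell markers, 73.4 CPM, was the highest of the 12 mice, and its squamous sum, 312 CPM, the highest of the untreated mice. The part of each in these values was not tested.

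**Figure D5:**
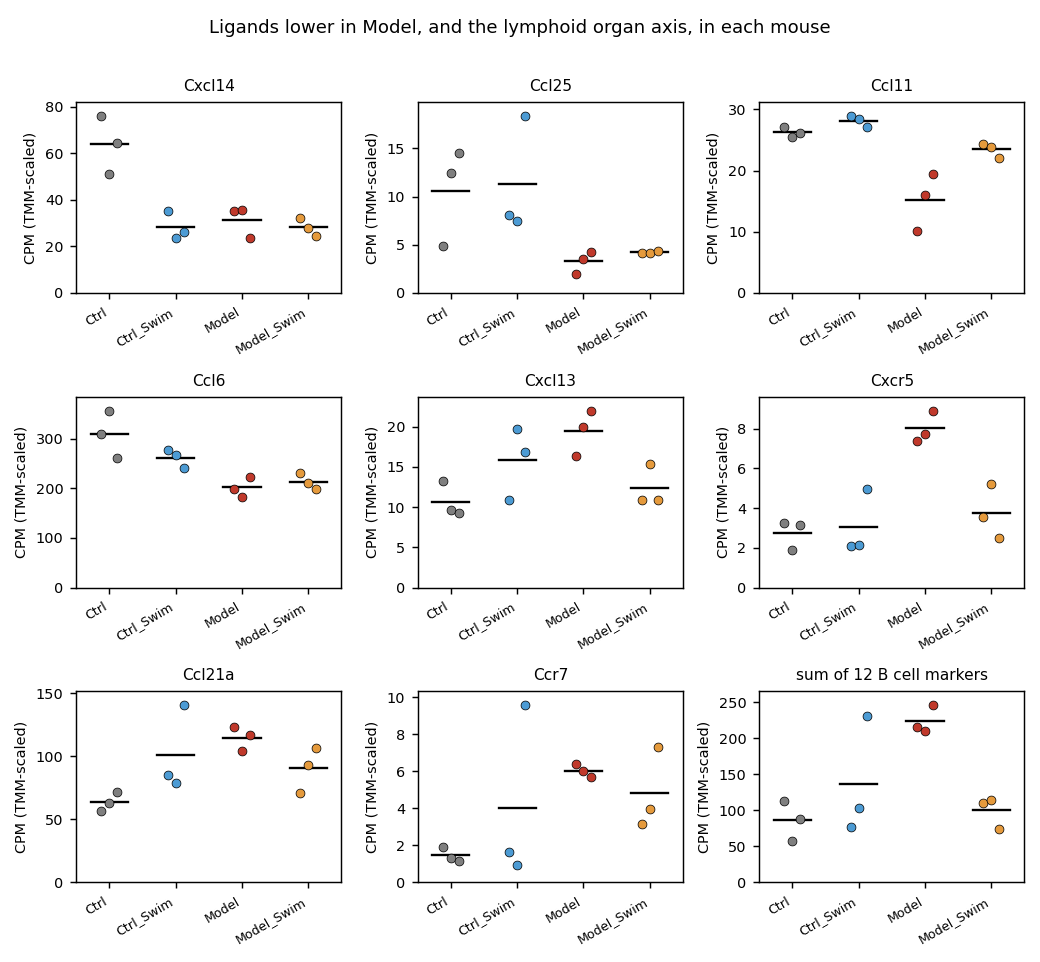
Each mouse's CPM of ligands that were lower in Model, of lymphoid organ genes and of the sum of 12 B cell markers, by group, with lines at group means. Cxcl14 is high in the 3 Ctrl mice alone (51.1 to 75.8 CPM), and Cxcr5 (7.4 to 8.90 CPM) and the B cell marker sum are high in Model, the sum being 209 to 246 CPM in Model and 231 CPM in Ctrl_Swim 4.

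The interaction asks whether the effect of swimming differed between mice with and without AOM/DSS. None of the 50 genes was called by edgeR, nor any gene of the table (0% of 15484). At an unadjusted p-value under 0.05 there were 14 (against 19.0% of all genes), 10 with a lower (9.45%) and 4 with a higher (9.58%) effect of swimming in AOM/DSS mice. DESeq2 called 4 of 43 with an adjusted p-value (against 1.51% of all genes with one), Ccl21a, Ccr6 and Cxcl13 lower and Cxcl14 higher, with adjusted p-values of 0.0156 to 0.0332. The edgeR log2 values of these genes were -1.01 ± 0.30, -1.86 ± 0.57, -1.22 ± 0.33 and 1.02 ± 0.29, with adjusted p-values of 0.121 to 0.141. The B cell and follicle markers had a median of -2.07 in the same test, and without Ctrl_Swim 2 Cxcl13 was called by edgeR (log2 value -1.46, adjusted p = 0.047). Without Model 1 and 3 the log2 value of Cxcl10 was -2.00. That fit left Model 2 alone in its group, which at 9.59 CPM was the highest of all mice for this gene.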

How the data were processed

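Libraries of 12 mice (TruSeq Stranded mRNA, Illumina) gave reads that, per the study's methods, went through Trimmomatic, HISAT2 (GRCm38.p6) and HTSeq-count. The authors deposited raw counts per gene, and FPKM values, which the methods credit to Cufflinks. For the 49 chemokine genes with over 100 counts, FPKM were proportional to each gene's share of the counts in all 12 libraries, so fits on FPKM rescale the same counts. Tool versions, annotation and strand setting are not given in the sources used here.

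Tests used edgeR 4.0.16 in R 4.3.3: TMM factors, filterByExpr with a minimum count of 10, a quasi-likelihood fit over the 4 groups and Benjamini-Hochberg adjustment over 15484 genes. SE is the log2 fold change divided by the root of F. The edgeR p-values weigh a group difference against the spread among mice within groups, estimated over all libraries with information shared between genes. Alternatives were DESeq2 1.42.0, limma 3.58.1 on log2(FPKM + 1) with a mean FPKM of at least 0.5 or unfiltered and on log2(FPKM + 0.1), other filters and scaling, fits omitting mice, and marker lists as covariates (squamous and neutrophil chosen after seeing the data). Simulated counts served to test the code. Stretches shared between genes were counted in GENCODE transcripts of GRCm38, and promoters came from RefSeq. Values per mouse are given for called genes, the most abundant ligand and receptor of each role and their partners. The genes, lists and tests were chosen with earlier results of these data known. The values of 1 gene are not reported here.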

Additional observations from a re-analysis of the deposited data

How the results depend on the processing

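Between Model and Ctrl, 18 chemokine genes were called, and 11 with the acinar list, 10 with the squamous list, 2 with the neutrophil list and 0 with the B cell and follicle list as a covariate (17 had an unadjusted p-value under 0.05 in the last), and 11 by limma on log2(FPKM + 1) without a filter. These lists differ between the groups, so a covariate also removes group differences. The other alternatives gave 13 to 26, with 20 by DESeq2, and leaving out each mouse gave 15 to 19. With the neutrophil list as a covariate the log2 fold change of Ccr1, Model vs Ctrl, turned from 0.51 to -0.16. Between Model_Swim and Model, leaving out each mouse gave 0 to 1, and every other alternative gave 0.

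For Ctrl_Swim against Ctrl the count of 1 became 0 with the acinar list, with the B cell and follicle list and in all 3 limma fits, and lay at 0 to 1 when each mouse was left out. For Model_Swim against Ctrl_Swim the count of 4 became 9 by DESeq2, 0 with the neutrophil list as a covariate and 2 by limma on log2(FPKM + 1) with or without the filter, and lay at 0 to 6 when each mouse was left out, with 0 without Ctrl_Swim 3 or Model_Swim 3 and 1 without Ctrl_Swim 2 or Model_Swim 2. For the interaction the count of 0 became 4 by DESeq2 and lay at 0 to 1 when each mouse was left out. The cause was not tested. Where Model keeps 1 library, in the fit without Model 1 and 3, that library is assumed to vary like the other groups.

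Same-numbered mice were not paired. Their deviations from the group means correlated at -0.26 to 0.41, above 0.1 in 3 of 10 pairs. With the replicate number as a block, 18 genes were called between Model and Ctrl, 0 between Ctrl_Swim and Ctrl and 0 between Model_Swim and Ctrl_Swim, and 0 in the other comparisons. The calls lost had log2 fold changes of 7.22 for Cxcl5, 6.69 for Cxcl2, 1.11 for Ccl8 and 1.38 for Cxcr4 (edgeR adjusted p = 0.0774 to 0.144) between Model_Swim and Ctrl_Swim, and of -1.03 for Cxcl14 (edgeR adjusted p = 0.160) between Ctrl_Swim and Ctrl. The most similar libraries correlated at 0.988. Depth limits Cxcl2, Cxcl3, Cxcr2 and Cxcl1 in untreated mice, which had at most 16 counts of each.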
